A study of Mus musculus and Homo sapiens with 4 samples.

Results

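LM8 is a mouse osteosarcoma cell line, and the comparison described here set an LM8 line carrying a hairpin against Merm1/Wbscr22 beside an LM8 line carrying a control vector. The 2 LM8 arrays were chosen by their titles out of 4 arrays in all, the others being from a human melanoma line. On them, 35877 of 45037 non-control probe sets carried a gene symbol, and the 34945 with exactly 1 symbol named 18193 genes. Of these, 11646 were kept because their level lay above the array median (50th percentile, control probe sets left out) on at least 1 array, and 6547 were not kept. Counts and medians run over all kept genes or all kept members of a list, while most single genes are named for the size of their difference.

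Both lines were grown in MEM with fetal bovine serum. The control line had been infected with pSIREN-RetroQ-control and the knock-down line with pSIREN-RetroQ carrying the mouse Merm1/Wbscr22 hairpin, and both were established as stable lines. Whether each is a clone or a pool of infected cells and how many hairpins were used are points the labels do not give. Total RNA of each line was hybridised to 1 Affymetrix 3' array, and the values are log2 expression values made with RMA, a method that equalises the arrays. Every difference below is the log2 value on the knock-down array minus that on the control array, so 1 means 2-fold higher. With 1 array per group there is no replicate, hence no test and no p-value, and precision is limited by how few arrays there are. The only gauge of error is technical, the SD of this difference between kept probe sets of the same gene. It had a median of 0.12 over 5313 genes and a 90th percentile of 0.28. The probe sets share the same arrays, so this SD misses error of labelling and hybridisation. It also says nothing of how cultures or separately established lines vary.

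Merm1/Wbscr22 is now named Bud23. Its product is a methyltransferase that places a methyl group on a guanosine of 18S ribosomal RNA, works with the small partner protein TRMT112 and takes part in the maturation of the small ribosomal subunit. Osteosarcoma is a bone tumour whose cells make osteoid, the collagen-rich matrix of bone, and carry transcription factors and enzymes of the osteoblast lineage. The groups of genes read below include interferon-stimulated genes, which are switched on through interferon-stimulated response elements, ATF4 targets, which serve amino acid supply under stress, and hypoxia response genes, which are bound by hypoxia-inducible factors.

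Stretches of promoter are shown for a few members of these 3 groups, because the groups were mostly lower on the knock-down array and each is known for its own DNA element. The sequences are the RefSeq promoter windows of GRCm38.p6, cut to stretches of 100 bases around the matches and written 5' to 3' on the gene's strand. In the 9 stretches the first match begins 30 to 193 bases before the gene start. Capitals mark the letters searched on both strands, where overlapping matches run together. In the first set they mark GAAANNGAAA, the core of an interferon-stimulated response element. The genes are Rsad2 (chr12:26456518-26456617, minus strand), Irgm1 (chr11:48871421-48871520, minus strand), Ifit1 (chr19:34640749-34640848, plus strand) and Igtp (chr11:58199456-58199555, plus strand).
Rsad2: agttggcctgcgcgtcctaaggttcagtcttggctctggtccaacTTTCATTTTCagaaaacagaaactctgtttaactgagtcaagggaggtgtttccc
Irgm1: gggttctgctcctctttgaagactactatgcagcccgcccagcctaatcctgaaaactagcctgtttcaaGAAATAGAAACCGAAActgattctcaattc
Ifit1: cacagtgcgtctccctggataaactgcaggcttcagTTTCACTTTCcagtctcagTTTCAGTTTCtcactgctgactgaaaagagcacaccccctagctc
Igtp: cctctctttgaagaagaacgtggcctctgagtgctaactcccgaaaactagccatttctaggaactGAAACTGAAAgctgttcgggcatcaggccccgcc

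In the second set the capitals mark TGATGNAA, letters found in the composite element bound by ATF4. The genes are Nupr1 (chr7:126625527-126625626, minus strand), Chac1 (chr2:119351003-119351102, plus strand) and Slc7a11 (chr3:50443617-50443716, minus strand).
Nupr1: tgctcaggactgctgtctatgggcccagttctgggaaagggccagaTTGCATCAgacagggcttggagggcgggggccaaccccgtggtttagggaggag
Chac1: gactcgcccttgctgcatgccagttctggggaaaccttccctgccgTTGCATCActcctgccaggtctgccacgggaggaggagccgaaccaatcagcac
Slc7a11: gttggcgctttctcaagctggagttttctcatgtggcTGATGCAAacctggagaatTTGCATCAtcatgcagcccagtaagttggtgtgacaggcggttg

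In the last set the capitals mark ACGTG, the core of a hypoxia response element. The genes are Ero1a (chr14:45318584-45318683, minus strand) and Bnip3 (chr7:138909562-138909661, minus strand).
Ero1a: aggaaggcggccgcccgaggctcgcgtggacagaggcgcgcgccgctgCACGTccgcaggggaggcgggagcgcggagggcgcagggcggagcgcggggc
Bnip3: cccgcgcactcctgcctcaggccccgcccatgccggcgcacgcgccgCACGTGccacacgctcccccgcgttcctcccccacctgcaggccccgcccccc

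A promoter window of 300 bases was at hand for 9454 of the 11646 kept genes. GAAANNGAAA was found in 17 of the 33 kept interferon-stimulated genes with a window (51.5%), against 3.52% of all kept genes with a window and 3.44% of all 32851 windows. TGATGNAA was found in 8 of 27 ATF4 target genes (29.6%), against 2.53% of kept genes and 3.97% of all windows. ACGTG was found in 17 of 23 hypoxia response genes (73.9%), against 29.4% of kept genes and 19.6% of all windows. These shares describe the lists, which were drawn up from known targets, and not the differences between the arrays. Among all genes at least 2-fold lower, GAAANNGAAA was in 1 of 29 windows (3.45%), and among those at least 2-fold higher it was in 2 of 13 (15.4%). TGATGNAA was in 2 of those 29 (6.90%) and 0 of those 13. ACGTG was in 2 of those 29 (6.90%) and 4 of those 13 (30.8%), against 29.4% of kept genes. In the interferon-stimulated genes at least 1.5-fold lower, GAAANNGAAA was in 3 of 7 with a window (42.9%). TGACGTCA, the element bound by CREB, was found in 0 of those 29 and 0 of those 13 windows, against 3.52% of kept genes. A match of letters is a description and not a measured binding site.

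The 2 arrays were alike in most of their values. The medians were 5.29 on the control array and 5.28 on the knock-down array. Of the kept genes, 6268 were higher on the knock-down array (53.8%), 5358 were lower (46.0%) and 20 were identical, with a median difference of 0.015 and 90% of differences, from the 5th to the 95th percentile, between -0.33 and 0.34. Hybridisation spike-ins had a median difference of -0.00045 over 18 probe sets. Spike-ins added before labelling were higher on the knock-down array in 23 of 24 probe sets, with a median of 0.14, and their part in the results below was not tested. The transferrin receptor control probe sets differed by -0.41 to -0.27. The 3' to 5' difference of the actin control probe sets was 0.35 on the control array and 0.34 on the knock-down array, and that of Gapdh was -0.18 on both.

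The baseline profile of both arrays held the osteoblast lineage markers. Of 18 osteoblast markers measured, 17 were kept and 16 lay above the median on both arrays. Sp7, which encodes the osteoblast transcription factor osterix, read 11.11 on the control array and 10.94 on the knock-down array. Alpl, the alkaline phosphatase of mineralizing cells, read 11.63 and 11.88 on the same arrays, and Ibsp, bone sialoprotein, read 9.52 and 9.78. The chains of type I collagen were high on both arrays, with Col1a1 at 11.16 and 11.57 and Col1a2 at 14.63 and 14.73. Pth1r, the receptor for parathyroid hormone, read 10.93 and 10.75, and Dlx5 read 10.14 and 9.91. Sost, made by osteocytes, was the marker not kept, at 3.65 and 3.89. No osteoblast marker differed by as much as 1.5-fold, and Phex, a peptidase gene of phosphate control, differed most, from 6.59 to 7.15. Runx2, Bglap and Spp1 are not analysed here.

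Cartilage markers were present in part. Of 18 chondrocyte markers 9 were kept and 8 lay above the median on both arrays. Col2a1, the main collagen of cartilage, read 12.00 on the control array and 12.38 on the knock-down array. Col9a1 read 9.89 and 10.54, and Sox9, the transcription factor that specifies cartilage, read 8.20 and 8.14. Acan, which encodes aggrecan, was not kept, nor was Col10a1 of hypertrophic cartilage at 3.91 and 3.76. Sox6, a partner of Sox9, read 8.55 and 7.80. Cnmd, which encodes chondromodulin, a cartilage glycoprotein that restrains vessel growth, stood out with 6.29 and 3.95.

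Markers of other cell types were mostly below the median. Ptprc, the pan-leukocyte marker, read 3.09 and 3.46, Pecam1 of endothelium read 3.96 and 3.91, and Cdh1, the epithelial cadherin, read 4.54 and 3.91, none of them kept. Of 11 leukocyte and osteoclast markers 4 lay above the median on both arrays, as did 2 of 8 endothelial, 2 of 10 epithelial, 4 of 10 skeletal muscle, 3 of 8 adipocyte, 5 of 7 neural and glial and 1 of 7 melanocyte markers. Tubb3, a neuronal tubulin, was the marker of these other types that differed by more than 1.5-fold, at 7.35 and 6.64. Smooth muscle and fibroblast markers, many of them shared with bone-forming cells, lay above it in 9 of 11. The plot of marker levels shows osteoblast and fibroblast markers spread to the right of the median line, and most others at or left of it.

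**Figure D1:**
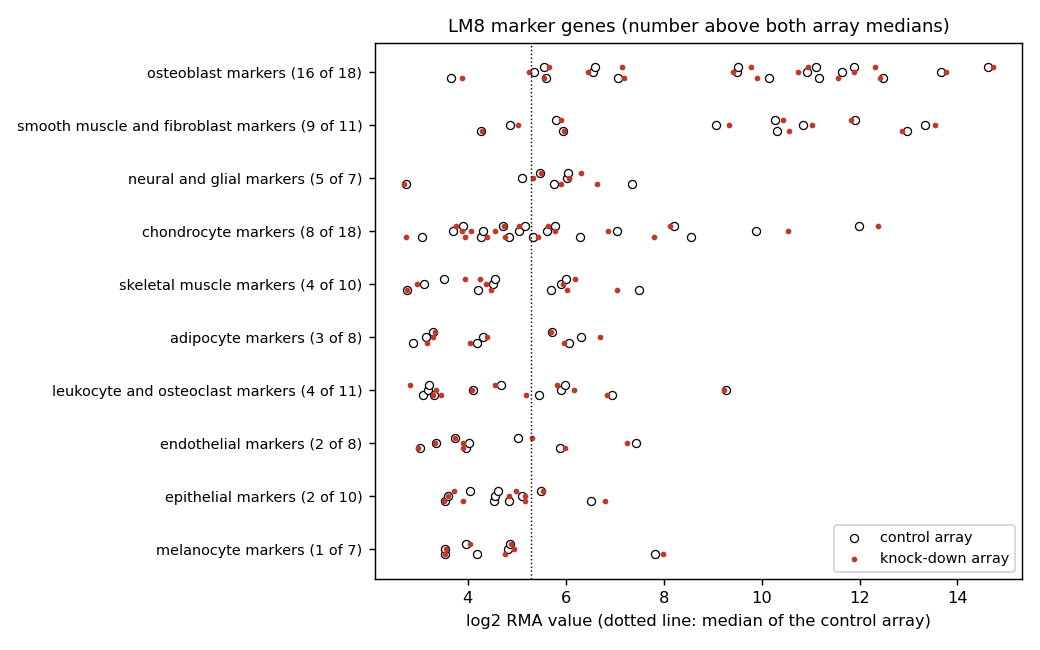
Log2 RMA values of the measured markers of 10 cell types, with open circles for the control array, red dots for the knock-down array, and the median of the control array at 5.29 as a dotted line. In brackets stands how many of the measured markers lay above both array medians, from 16 of 18 for osteoblast markers to 1 of 7 for melanocyte markers.

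Bud23 itself, measured by a single probe set, read 10.61 on the control array and 8.48 on the knock-down array. The difference of -2.13 leaves 22.9% of the control level, and the labels and the target gene therefore run the same way. In bulk RNA a lower value can stand for less RNA per cell or for fewer cells that carry it, and these arrays cannot tell them apart. Trmt112, whose product holds Bud23 stable, read 12.92 on both arrays. The other methyltransferases that use the same partner differed by between -0.11 (N6amt1) and 0.20 (Thumpd2), and Mettl5, which also modifies 18S ribosomal RNA, read 10.21 and 10.18.

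Genes of small-subunit assembly did not share the size of the Bud23 difference. All 42 factors of 18S ribosomal RNA modification and small-subunit maturation were kept. Of these, 29 were higher and 13 lower, against 53.8% and 46.0% of all kept genes. Their median was 0.058 beside 0.015 for all kept genes. Bud23 was the only one past 1.5-fold. Dimt1, an 18S dimethyltransferase, read 9.87 and 9.88, and Nat10, an acetyltransferase of the same RNA, read 8.68 and 8.67. The largest differences after Bud23 were those of Noc4l, with 9.40 and 9.72, and Imp3, with 11.52 and 11.28. Small-subunit ribosomal proteins had a median of -0.007 over 22 kept genes and large-subunit proteins -0.005 over 21, both turning positive when the arrays were centred on their medians. The Williams-Beuren region genes, among which human BUD23 lies, had 12 of 20 kept members higher, against 53.8% of all kept genes. Ncf1, an NADPH oxidase subunit gene of that region, read 7.74 and 6.78.

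Over all kept genes, 18 (0.155%) were at least 2-fold higher on the knock-down array and 37 (0.318%) at least 2-fold lower. At 1.5-fold the numbers were 135 (1.16%) and 153 (1.31%), and at 3-fold they were 5 and 6. Differences of this size were commoner at low levels: of 5 equal groups of kept genes by mean level, the lowest held 5 of the higher and 15 of the lower genes, and the highest 1 and 0. The SD of differences went from 0.30 in the lowest of these groups to 0.15 in the highest. Of the 55 genes, 17 had several kept probe sets, 16 of which had the same sign on all, and 6 of which passed 2-fold on all.

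**Figure D2:**
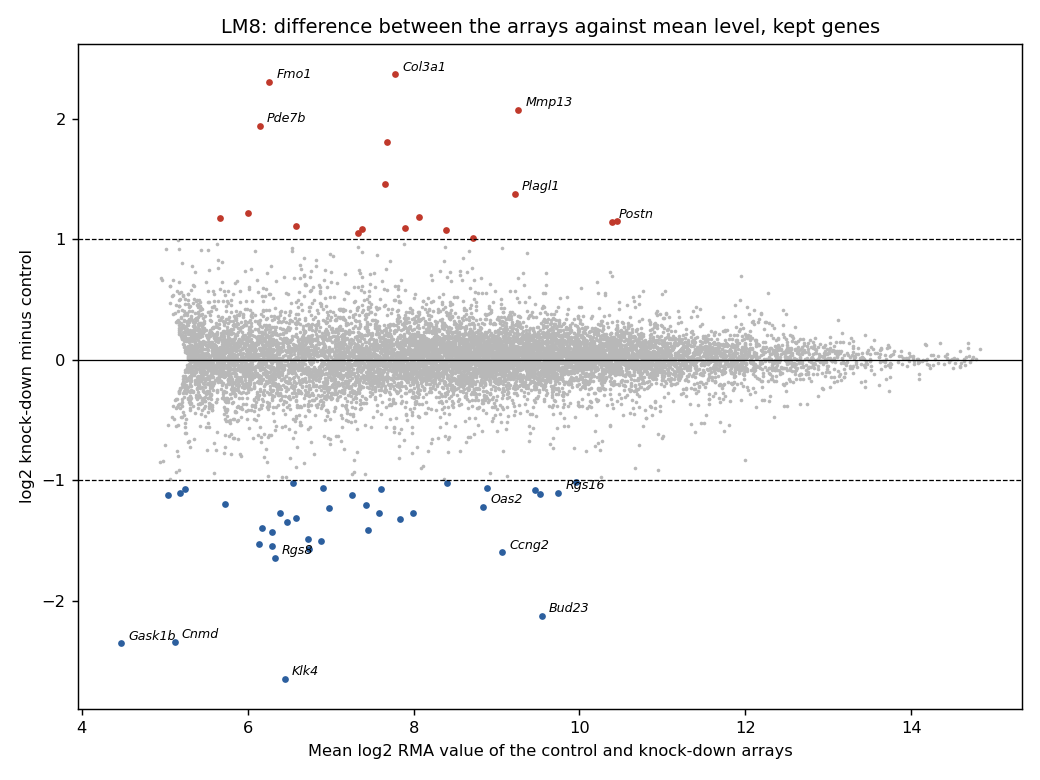
Each point is a kept gene, with the mean of its log2 RMA values on both arrays on the horizontal axis and the log2 difference, knock-down minus control, on the vertical axis. Red points are the 18 genes at least 2-fold higher, blue points the 37 at least 2-fold lower, dashed lines mark 2-fold, and the cloud narrows towards high levels.

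Secreted and matrix genes stood at both ends. Klk4, a secreted serine protease of tooth enamel, read 7.77 and 5.12, a difference of -2.65 that left 16.0% of the control level. Fetub, a plasma protease inhibitor, read 7.07 and 5.52, and Fgl1, a fibrinogen-like secreted protein, read 7.53 and 5.96. Gask1b, a Golgi-associated kinase-like protein, read 5.65 and 3.30, and Mamdc2 read 5.61 and 4.48. The knock-down values of Klk4, Gask1b, Cnmd and Mamdc2 lay below the array median, where a probe set gives little signal over background and the size of a difference is imprecise.

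At the other end, Col3a1, a fibrillar collagen of soft connective tissue, read 6.59 and 8.96, 5.16-fold higher. Mmp13, the collagenase of bone and hypertrophic cartilage, read 8.23 and 10.30. Mgp, an inhibitor of calcification, read 9.88 and 11.03, and Postn, which encodes periostin, read 9.82 and 10.96. Fbln1 read 6.83 and 7.92 on its bright probe set, while its other kept probe sets differed by 0.47 and -0.10, so it is the 1 gene among the 55 whose probe sets disagreed in sign. Kng1, which encodes kininogen, read 6.02 and 7.13.

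Signalling genes made up another share. Rgs8 and Rgs16, which speed the shut-off of G-protein signals and are neighbours in the GRCm38.p6 gene table, read 7.15 and 5.50, and 10.29 and 9.19. All 3 kept probe sets of Rgs16 passed 2-fold. Ramp1, which makes the calcitonin receptor-like receptor bind CGRP, read 7.01 and 5.58, and its partner Calcrl was not kept at 4.49 and 4.34. Ret, a receptor tyrosine kinase gene, read 7.35 and 8.44, though its other kept probe set differed by only 0.18. Sema3a, a guidance cue that also acts on bone cells, read 7.86 and 8.93, and Tnfrsf21, a death-domain receptor gene, read 8.22 and 9.23.

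Cell cycle, transport and metabolic genes completed the set. Ccng2, which encodes cyclin G2, read 9.86 and 8.27, and Rgcc, a regulator of the cell cycle, read 7.47 and 5.98, both past 2-fold on each kept probe set. Ndrg2 read 7.64 and 6.13, and Eno2, the neuronal enolase, read 6.90 and 5.37. Gch1, the first enzyme of tetrahydrobiopterin synthesis, read 10.08 and 8.96, though its other kept probe set differed by only -0.55. Slc13a5, a citrate transporter, read 8.14 and 7.07, and Slc38a4, an amino acid transporter gene that is imprinted, read 6.33 and 5.13. The knock-down value of Slc38a4 lay below the array median. Slco1a5, an organic anion transporter, read 6.78 and 8.58. Txnip, whose product binds thioredoxin and restrains glucose uptake, read 7.47 and 8.66, with 0.72 on its other kept probe set.

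The remaining lower genes were Glrb, a glycine receptor subunit, with 8.22 and 6.95, and Itga8, an integrin subunit, with 7.06 and 6.04. Megf10, an engulfment receptor gene, read 8.91 and 7.89, Avil, an actin-binding villin relative, read 10.00 and 8.93, and Chst15, a chondroitin sulfotransferase, read 7.82 and 6.69. Baiap2l1 read 8.03 and 6.82, Dynap 7.25 and 5.93, Tmcc3 7.02 and 5.75, and Slc9a3r1 7.44 and 6.38. The kept probe sets of Tmcc3 ranged from -1.30 to -0.50 and those of Slc9a3r1 from -1.09 to -0.41. Arhgap29 read 5.74 and 4.63 and Vat1l 5.78 and 4.70, both ending below the median. Among the remaining higher genes, Pax8 read 5.40 and 6.62, Rab30 6.81 and 7.86, and Crybg1 5.08 and 6.25, the last from below the array median. Plagl1, a zinc finger gene, read 8.53 and 9.91 on a probe set whose name marks it as shared between transcripts, and it has no other kept probe set under that name. A probe set annotated with a symbol that RefSeq lists as a synonym of Plagl1 read 5.89 and 5.88.

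**Figure D3:**
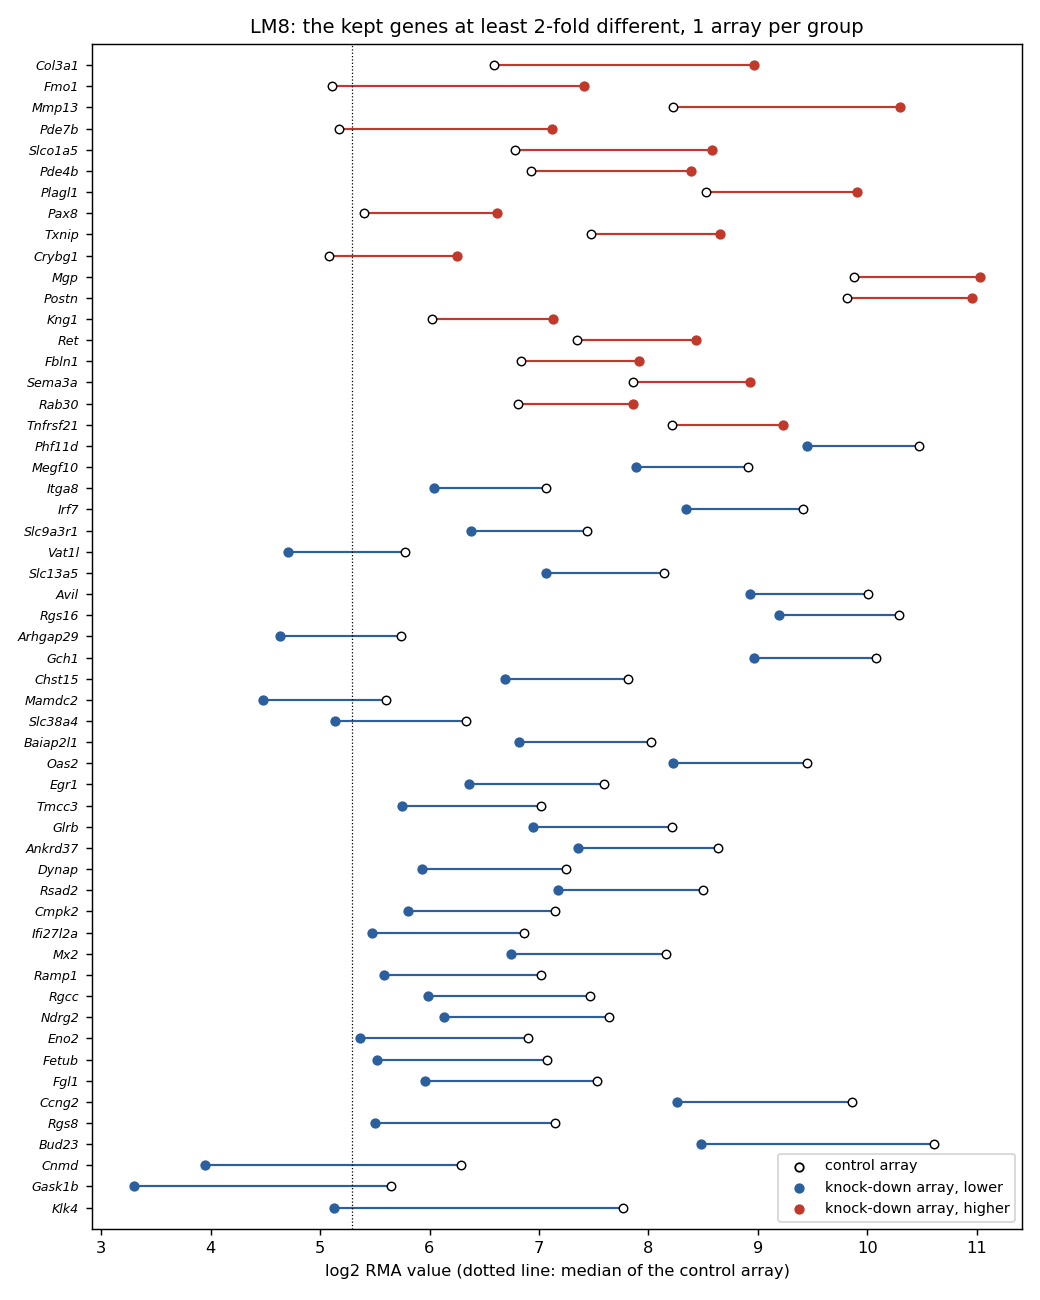
Log2 RMA values of the 55 kept genes at least 2-fold different, with the control array as an open circle, the knock-down array as a filled dot (red where higher, blue where lower) and the control median of 5.29 as a dotted line. The bars run from Col3a1, 5.16-fold higher, to Klk4, 6.27-fold lower, and 7 of the 37 lower genes end below the median of the knock-down array.

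Interferon-stimulated genes were the group with the lowest median. Of 50 genes listed, 46 were measured and 44 kept, all above the median on both arrays. On the knock-down array 39 were lower (against 46.0% of all kept genes) and 5 higher, with a median of -0.42, and 11 (against 1.31% of all kept genes) had a difference of 1.5-fold or more downwards, 5 of them 2-fold or more. The leukocyte markers on the same arrays had a median of -0.11 over 5 kept genes, or -0.049 without a filter, and Ptprc was not kept. The part of other cells in the difference was not tested.

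The 5 members past 2-fold were Mx2, Cmpk2, Rsad2, Oas2 and Irf7. Mx2, an antiviral GTPase, read 8.16 and 6.75. Rsad2, which encodes viperin and whose promoter piece is printed above, read 8.50 and 7.18, with all 3 kept probe sets between -1.32 and -1.23. Cmpk2, a nucleotide kinase gene and the neighbour of Rsad2 in the gene table, read 7.15 and 5.80. Among the oligoadenylate synthetases, which activate RNase L, Oas2 read 9.45 and 8.23 and Oas1a 11.76 and 11.24, while Oas1b read 7.51 and 7.60. Ifit1, which binds foreign RNA ends, read 10.05 and 9.32, but Ifit2 read 9.38 on both arrays and Ifit3 8.76 and 8.65. Ifi27l2a and Phf11d, which were not in the list, were past 2-fold too, at 6.87 and 5.47, and at 10.47 and 9.45.

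Interferon-inducible GTPases of the IRG and GBP families in the list were lower as well, such as Irgm1 with 10.63 and 9.88, Igtp with 10.65 and 10.09 and Gbp2 with 6.29 and 5.86. Usp18, which removes ISG15 and dampens the receptor, read 10.57 and 9.88. Rtp4 read 12.07 and 11.53, yet its kept probe sets disagreed in sign, from -0.54 to 0.37. Among transmembrane restriction factors, Bst2, or tetherin, read 11.61 and 11.08, while Ifitm1 read 12.08 and 12.39 and Ifitm3 13.76 and 13.73.

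Sensors and transcription factors in the list, which act upstream and are induced themselves, were also lower. Irf7, the transcription factor that amplifies interferon production, read 9.41 and 8.35. Stat2 read 7.04 and 6.47, and Irf9, a DNA-binding factor of the response element, read 9.15 and 8.91. The RNA sensors Ifih1 and Ddx58 read 10.29 and 9.89, and 10.22 and 9.84. Of the receptor chains, Ifnar1 read 8.34 and 8.45 and Ifnar2 10.70 and 10.57, and Jak1, the kinase bound to the receptor, read 10.23 and 10.71 with kept probe sets between -0.16 and 0.48. The ligand genes Ifnb1 (4.50 and 4.71) and Ifna1 (5.10 and 5.20) were not kept. Over 26 kept ligand, receptor and signalling genes 18 were lower, against 46.0% of all kept genes, and 8 higher. The median was -0.12, or -0.041 with the filter at the 70th percentile, and none passed 1.5-fold. Stat2, the lowest of these 26, also stands in the interferon-stimulated list. Antigen presentation genes, which interferon also induces, had a median of -0.014 over 16 kept genes, with B2m at 13.86 and 13.89 and Psmb9 at 11.06 and 11.25.

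ATF4 target genes were lower in 28 of 31 kept members, against 46.0% of all kept genes, with a median of -0.24. A difference of 1.5-fold or more downwards was found in 5 of them, against 1.31% of all kept genes. Atf4 itself read 13.48 and 13.30. Nupr1, a stress-induced chromatin protein, read 11.12 and 10.22, and Chac1, an enzyme that degrades glutathione, read 10.31 and 9.57; promoter pieces of both are printed above. Slc7a3, a cationic amino acid importer, read 10.49 and 9.90. Cth, which makes cysteine from cystathionine, read 12.41 and 11.58, and Slc7a11, the cystine importer, 7.26 and 6.86. Sesn2 read 9.30 and 8.71 on its bright probe set and was 0.07 higher on another. Trib3, which feeds back on ATF4, read 11.04 and 10.50, Ddit3, also called CHOP, 10.85 and 10.45, and Asns, asparagine synthetase, 13.16 and 12.97.

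Serine and one-carbon enzymes among these targets were lower too, Psph with 12.39 and 12.05, Psat1 with 13.04 and 12.80, Phgdh with 13.62 and 13.50, and Mthfd2 with 12.56 and 12.36. The aminoacyl-tRNA synthetases were lower in 17 of 19, against 46.0% of all kept genes, but by little. Their median was -0.072, or -0.12 with the mean of each gene's probe sets. Wars had the largest difference among them, from 9.67 to 9.45. ER chaperones and genes of the unfolded protein response were lower in 18 of 22, against 46.0% of all kept genes. Their median was -0.13 with none at 1.5-fold, led by Edem1 with 10.32 and 10.04 and kept probe sets of both signs. Hspa5, the main ER chaperone BiP, read 13.51 and 13.50, and Xbp1 11.84 and 11.64.

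Hypoxia response genes were lower in 25 of 28 kept members, against 46.0% of all kept genes, with a median of -0.26. Of these, 5 passed 1.5-fold, against 1.31% of all kept genes. Ankrd37 read 8.63 and 7.36, and Adm, which encodes the vasodilator adrenomedullin, 10.75 and 9.78. Bhlhe40, a repressor also found in the circadian clock, read 9.61 and 8.64. Ero1a, the oxidase that supplies disulfide bonds in the ER, read 11.08 and 10.37, and Bnip3, a mitophagy receptor, 11.73 and 11.20. Vegfa read 10.19 and 9.80, and Egln3, a prolyl hydroxylase that marks hypoxia-inducible factors for decay, 9.39 and 8.87, while its relative Egln1 read 8.96 and 9.02. Ndrg1 read 12.04 and 11.45, lower on all 5 kept probe sets. Angptl4 was the highest exception, at 8.42 and 8.62.

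Glycolytic enzymes and transporters, 4 of which are also in the hypoxia list, were lower in 18 of 22, against 46.0% of all kept genes. Their median was -0.16. Beside Eno2, the transporters Slc16a3, a lactate exporter, and Slc2a3, a glucose importer, had the largest differences, with 6.87 and 6.22, and 11.70 and 11.10. Pfkp, a phosphofructokinase, read 11.17 and 10.78, and Pkm, pyruvate kinase, 12.25 and 11.98. Ldha read 14.10 and 14.08, and Eno3 and Aldoc were higher, at 9.66 and 9.96, and at 5.19 and 5.50, Aldoc from below the array median. Subunits of respiratory complexes I to IV ran slightly the other way, with 31 of 42 higher, against 53.8% of all kept genes. Their median was 0.047, or 0.029 with averaged probe sets.

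Immediate early genes, which answer growth factors and stress within minutes, were split. Of 29 kept members 20 were lower, against 46.0% of all kept genes, and 9 higher. The median was -0.077, or -0.14 with averaged probe sets. Egr1 read 7.59 and 6.36, Fos 7.74 and 6.81, and Ier3 11.41 and 10.49. Other members differed less, as Jun read 8.44 and 8.57, Fosl1 9.81 and 9.86, and Myc 10.39 and 10.37. Klf10 (7.12 and 7.68) and Dusp5 (6.93 and 7.48) were higher. Tnfaip3, an inhibitor of NF-kB signalling, read 7.02 and 6.14, while Nfkbia read 12.08 and 12.13.

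Fibrillar and network collagens had the highest median of all lists read, 0.38 over 18 kept genes. Of these, 13 were higher, against 53.8% of all kept genes, and 5 lower. Beside Col3a1, the basement membrane chains Col4a1 and Col4a2 read 8.61 and 9.24, and 8.10 and 8.58. Col8a2 read 7.50 and 8.11, while its partner Col8a1 read 10.00 and 9.30, the only member of this list at least 1.5-fold lower. Col6a1 and Col6a2 read 11.19 and 11.62, and 11.80 and 12.23, and Col5a2 12.30 and 12.67. The enzymes that modify and cross-link collagen did not share this, with 9 of 18 higher and a median of -0.006 that turned positive when the arrays were centred. P4ha3, a prolyl hydroxylase subunit, differed most, from 5.01 to 5.73, the control value lying below the array median. Plod2, a lysyl hydroxylase, read 10.76 and 10.30, and Serpinh1, the collagen chaperone, 13.36 and 13.32.

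Matrix glycoproteins and proteoglycans were higher in 21 of 30, against 53.8% of all kept genes, with a median of 0.094. That median was 0.045 with averaged probe sets, 0.047 without a filter and 0.14 at the 70th percentile filter. Beside Postn, Mgp and Fbln1, Ogn, which encodes osteoglycin, read 10.75 and 11.32. Some members were lower, Ccn1 with 11.76 and 11.30 and Ccn2 with 10.78 and 10.52. Fn1, fibronectin, read 11.63 and 11.87 with kept probe sets from -0.32 to 0.24. Of the 15 kept metalloproteases and inhibitors Mmp13 was the only one past 1.5-fold, with Mmp2 at 9.65 and 9.95 and Timp2 at 11.85 and 12.23. All 9 kept complement genes of 15 measured were higher, against 53.8% of all kept genes. Their median was 0.29, or 0.21 without shared probe sets. C2 led them with 6.39 and 7.13, though Clu had kept probe sets of both signs. Of the 9 kept smooth muscle and fibroblast markers 7 were higher, against 53.8% of all kept genes. These markers had a median of 0.18, or 0.11 with averaged probe sets. Whether they or the pre-labelling spike-ins, at 0.14, play a part in these matrix differences was not tested.

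Cyclic AMP pathway genes were higher in 17 of 25 kept members, against 53.8% of all kept genes, with a median of 0.11. That median was 0.010 with averaged probe sets and 0.044 without shared probe sets. Of the 6 largest differences 5 were higher phosphodiesterases, enzymes that degrade cyclic nucleotides, and the other was Ramp1, the list's 1 gene at least 2-fold lower, at 7.01 and 5.58. Pde7b read 5.18 and 7.12, the control value lying below the array median, and Pde4b 6.93 and 8.39, with 0.99 on its other kept probe set. Pde8a read 6.26 and 7.11, Pde4d 7.30 and 8.12, and Pde5a 5.88 and 6.60, the last with kept probe sets from -0.05 to 1.06. Pde3a went the other way, at 5.40 and 5.01, ending below the array median, and Pde4a read 5.95 and 5.87. The regulatory subunit Prkar1a, which holds protein kinase A inactive, read 12.33 and 11.94, and the catalytic subunit Prkaca 10.64 and 10.47. Gnas, the stimulatory G-protein subunit, read 13.24 and 13.35. Among the 11 kept regulators of G-protein signalling 6 were higher, near the 53.8% of all kept genes, and 0 of them reached 1.5-fold. Rgs2 (7.75 and 8.26) and Rgs10 (8.35 and 8.84) were highest, and the list's median of 0.055 turned negative with the mean of each gene's probe sets. The largest differences were downwards, with 3 members at 1.5-fold or more, against 1.31% of all kept genes. These were Rgs8 and Rgs16, both past 2-fold and given above, and Rgs11, at 6.18 and 5.40.

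Xenobiotic and aldehyde enzymes were higher in 16 of 22, against 53.8% of all kept genes. Their median of 0.14 was 0.039 without a filter and 0.25 at the 70th percentile filter. Fmo1, a flavin monooxygenase, read 5.11 and 7.41, again from below the array median. Cyp26a1, which breaks down retinoic acid, read 7.40 and 8.36, and its relative Cyp26b1 7.92 and 8.25. Aldh3a1, an aldehyde dehydrogenase, read 8.21 and 9.11. The drug exporters Abcg2 and Abcc4 read 8.17 and 9.01, and 6.64 and 7.37.

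Single ligands and antagonists of bone development differed in both directions. Dkk1, a Wnt antagonist, read 5.60 and 4.67, and Dkk3 9.72 and 10.32. The BMP antagonists Grem1 and Nog read 7.11 and 6.26, and 5.71 and 5.15, while Bmp4 read 12.49 and 12.42. The knock-down values of Dkk1 and Nog lay below the array median. Pdgfc read 10.46 and 9.70. The Wnt list as a whole had 11 of 22 higher, against 53.8% of all kept genes. Its median was near 0, with a sign that differed between scalings and filters. TGF-beta and BMP ligands, receptors and antagonists were higher in 15 of 24 kept members, against the same 53.8%. Their median was 0.11, or 0.013 with averaged probe sets. FGF ligands and receptors were higher in 6 of 7 kept members, with a median of 0.14. Osteoblast transcription factors were lower in 9 of 12, against 46.0% of all kept genes. Their median was -0.071, or -0.14 with averaged probe sets, led by Sox4 with 10.17 and 9.80 and probe sets of both signs.

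Cell division genes differed little. DNA replication genes were higher in 26 of 38, against 53.8% of all kept genes, with a median of 0.049 and none at 1.5-fold. Pcna read 13.66 and 13.70. G2/M genes were higher in 20 of 29, against the same 53.8%. Their median of 0.057 was -0.00093 with the mean of each gene's probe sets. Caspases and inhibitors of apoptosis were higher in 15 of 19, against 53.8% of all kept genes, with a median of 0.069. Casp12, an ER-associated caspase, read 6.60 and 7.46, and Casp1 9.03 and 9.41, while Cflar, which blocks caspase-8, read 8.21 and 7.85. The p53 target list had 18 of 30 lower, against 46.0% of all kept genes. Its median was -0.056, or -0.098 with averaged probe sets, and p53 itself was not analysed here. Of the 75 lists other than cell type markers, 60 had a median within 0.1 of 0 and 51 held no kept gene at 2-fold.

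**Figure D4:**
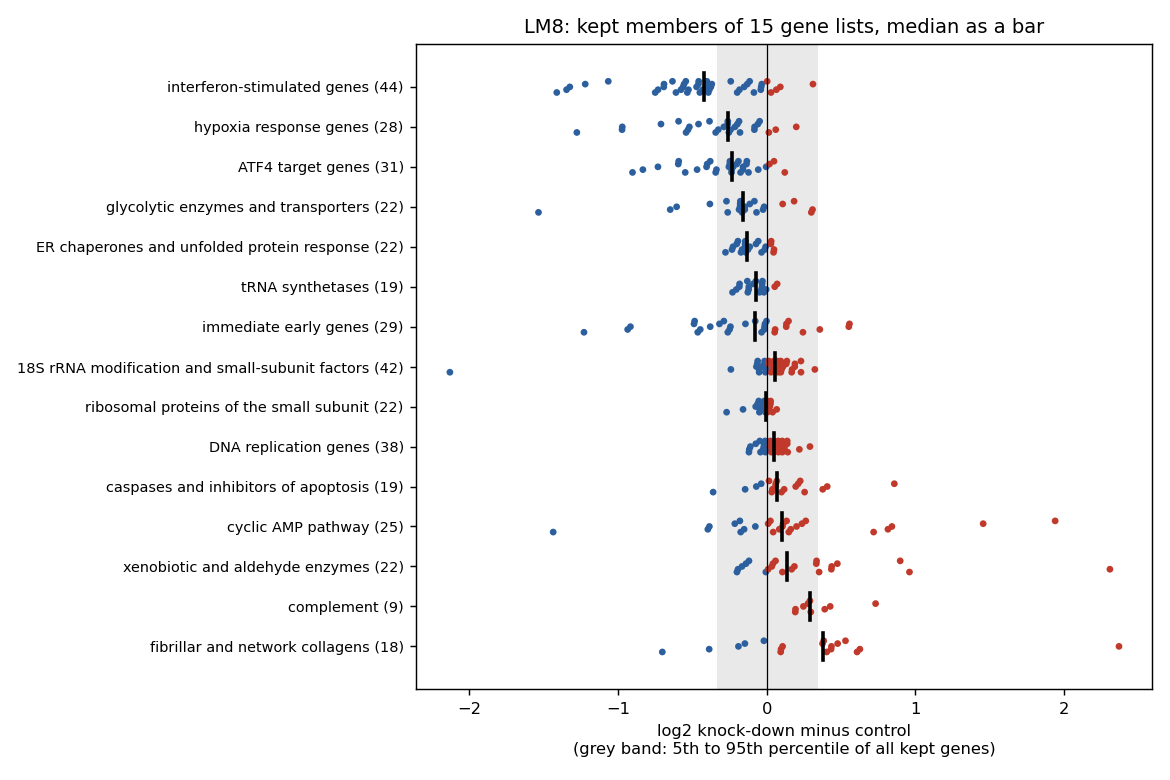
Each dot is a kept member of 1 of 15 gene lists, placed by its log2 difference, knock-down minus control, in red where higher and blue where lower, with the list's median as a black bar, the number of kept members in brackets and, in grey, the 5th to 95th percentile of all kept genes (-0.33 to 0.34). The medians run from -0.42 for interferon-stimulated genes to 0.38 for fibrillar and network collagens, while ribosomal proteins and DNA replication genes sit near 0.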

How the data were processed

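The values as deposited were on a log2 scale, 1 per probe set; per the submitters' processing notes the authors used RMA, with no version given. Groups were taken from the titles. Gene names came from GEO's platform annotation, with symbols updated by Entrez ID (34754 probe sets) or symbol (143) in a RefSeq gene table of GRCm38.p6, and 61 kept as annotated. An earlier naming that also followed RefSeq synonyms was dropped after its values were seen, and is given among the alternatives. Each gene was read from the brightest of its probe sets that name 1 gene, by mean over both arrays. The members and the 85 gene lists were chosen with earlier results of these data known. Named were Bud23, genes at least 2-fold different, up to 6 members of a list with the largest differences and defining members; other members stand beside them for contrast, chosen after their values were seen. No set test was run. The scripts (Python 3.11.15, pandas 2.3.3, numpy 2.4.6) were tested on simulated data. Alternatives were no filter, the 70th percentile, median centring, repeated quantile normalization, loess (span 0.4), averaging each gene's probe sets, no _x_at or _s_at probe sets, 32 added before the log2, and thresholds of 1.5-fold and 3-fold.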

Additional observations from a re-analysis of the deposited data

How the results depend on the processing

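The Bud23 difference lay between -2.14 and -2.03 over all alternatives. The count of genes at least 2-fold higher, 18, was 10 after averaging each gene's probe sets, 10 with 32 added, 135 at 1.5-fold and 5 at 3-fold. The count at least 2-fold lower, 37, was 22 when genes had to pass the 70th percentile, 20 with 32 added, 153 at 1.5-fold and 6 at 3-fold. By construction, other thresholds count other sizes and the 70th percentile filter leaves out genes at lower levels. Adding 32 likewise shrinks differences at low levels. Any other cause of these shifts was not tested. Of the 54 genes besides Bud23, 29 stayed past 2-fold with 32 added, 35 with the mean of probe sets (6 not kept) and 34 with the 70th percentile (20 not kept). Plagl1 was not kept without _x_at and _s_at probe sets. When probe sets were also named through RefSeq synonyms, an alternative added after the values were seen, and _x_at and _s_at probe sets were left out, Plagl1 turned to -0.014; with synonyms alone its difference stayed at 1.38. Of 75 list medians, 14 changed sign under a scaling and 31 under any alternative. The interferon-stimulated median lay between -0.42 and -0.38 and that of fibrillar and network collagens between 0.34 and 0.39. No paired analysis was possible because each group holds 1 array. Low signal over background limits the genes near or below the array median.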

Other observations

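Other groups held single genes that differed by more than 1.5-fold. Itgb3, the integrin subunit of osteoclasts and platelets, read 4.93 on the control array and 5.71 on the knock-down array, from below the array median. Zeb1, a repressor of epithelial genes, read 7.95 and 8.69, while Gsc read 6.10 and 5.46. Ankrd1, a target of YAP signalling, read 8.23 and 7.42, and Pik3ip1, an inhibitor of PI3-kinase, 8.56 and 7.68. Arrdc4, a relative of Txnip in glucose sensing, read 8.06 and 8.74, higher on both kept probe sets. The secreted factors Pgf and Ccl5 read 9.04 and 8.42, and 6.11 and 5.50, and Il18 read 5.89 and 6.48. The serine protease gene Htra3 read 8.40 and 7.68, with a difference of only -0.029 on its other kept probe set.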
